A study of Mus musculus with 3 samples.

Results

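The nuclear genes for subunits of the mitochondrial respiratory chain were read on arrays of 3 lines of mouse OP9 cells. Probes were taken by gene symbol: symbols beginning with Nduf for complex I, Sdha to Sdhd for complex II, Uqcr for complex III, Cox4 to Cox8 for complex IV and Atp5 for complex V, the ATP synthase. Of 23473 probes, 80 had such a symbol, and 78 of them, for 77 genes, had a value on all 3 arrays. They comprised 36 probes of complex I, 4 of complex II, 6 of complex III, 16 of complex IV and 16 of complex V. Uqcrq of complex III was left out because it was blank on the OP9-DL array, with 2.3 in OP9-GFP and 1.9 in OP9. Cox8c, a testis form of a complex IV subunit, was blank except for a reading of 1.6 in OP9-GFP. The symbols also took in genes that are not subunits: Cox4nb is now Emc8, a gene of the endoplasmic reticulum membrane complex that lies beside Cox4i1, Atp5s is now Dmac2l, and Ndufaf1 is an assembly factor of complex I.

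The OP9-DL line carried GFP and the Notch ligand Delta-like 1, the OP9-GFP line carried GFP, and OP9 was the parental control. OP9 is a stromal line from the calvaria of newborn mice of the strain B6C3Fe-a/a-Csf1op/Csf1op, so every line shared the Csf1op mutation in the gene for the macrophage growth factor M-CSF. All were kept in alpha-MEM with 20% fetal bovine serum and had no other treatment. How GFP and Delta-like 1 were introduced, and whether a line was 1 clone, were not given in the sources used here. Each line had 1 array, so no difference below has a replicate check and no test could be run. The text gives differences between these arrays, not between conditions, and in bulk RNA fewer cells of a type and less RNA per cell cannot be told apart.

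The respiratory chain passes electrons from NADH (complex I) and succinate (complex II) through ubiquinone, complex III, cytochrome c and complex IV to oxygen, and the proton gradient so built drives ATP synthase. Most subunits are encoded in the nucleus and imported, and a small set is encoded by mitochondrial DNA. Transcription factors of the NRF1, GABP (an ETS factor) and YY1 types bind promoters of many of these nuclear genes.

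Intensities are the authors' scaled values, with a median of 20.0 over the probes of every array, and no member was near the highest intensity of its array. The highest member, Atp5g3, had 19033.4 on the OP9-DL array, where the highest probe had 42589.5. The labels were checked with Dll1, which encodes Delta-like 1 and had 333.3 in OP9-DL, 20.5 in OP9-GFP and 14.0 in OP9 cells. Stromal markers were bright in sum, with 51519.6, 47842.5 and 47255.4 on the OP9-DL, OP9-GFP and OP9 arrays. Of these sums Vim made 32110.4, 25328.1 and 18420.0, and Fn1 11281.8, 10240.7 and 17144.1. Thy1 and Dcn, a surface protein and a proteoglycan of many stromal cells, were under 4 on every array, and Lum had 5.8, 7.5 and 5.4. Of the 8 brighter stromal markers, 6 were lower and 2 higher in OP9-DL than in OP9-GFP, beside 51.3% and 48.0% of all probes compared. Col3a1, the lowest there, had 195.9, 936.4 and 660.5. Of the 8 mast cell markers 6 had a value on all arrays, and their sum was 854.4, 42.0 and 57.3, of which Tpsab1, a tryptase, made 818.9, 9.0 and 20.6. Of the blood cell markers 4 had such a value; the sum was 124.1, 10.8 and 8.6, of which Cd48 made 114.4, 3.0 and 2.1, and Ptprc stood at 2.8, 2.5 and 2.1. Of 4 endothelial markers 1, Kdr, was read on all arrays, with 19.7, 18.6 and 25.5, while Pecam1 and Cdh5 were blank on most. Epithelial markers, of which 2 of 4 were read, summed to 9.9, 11.4 and 8.9. Of brown fat and muscle markers, whose tissues are rich in mitochondria, Ucp1 had 15.4, 20.5 and 16.4, Cidea 3.4, 3.0 and 3.0, and all 6 summed to 283.4, 113.6 and 66.2, of which Acta1, skeletal muscle actin, made 226.0, 50.7 and 7.5. The part of these cell type markers in the results below was not tested.

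As examples of the promoters of genes whose values are given below, the 250 bases before the annotated start are shown for 6 genes, 5′ to 3′ in the direction of the gene, from RefSeq on the build GRCm38.p6. They were picked because these genes stood at or near the ends of the ranges of their complexes. Capitals mark the letters searched for: GCGCATG (NRF1), CCGGAAG (ETS), ATGGCGG (YY1) and CCAAT, each on both strands. The NRF1 and YY1 letters are 7-base cores of longer sites.
Ndufv1, chr19:4012756-4013005, minus strand: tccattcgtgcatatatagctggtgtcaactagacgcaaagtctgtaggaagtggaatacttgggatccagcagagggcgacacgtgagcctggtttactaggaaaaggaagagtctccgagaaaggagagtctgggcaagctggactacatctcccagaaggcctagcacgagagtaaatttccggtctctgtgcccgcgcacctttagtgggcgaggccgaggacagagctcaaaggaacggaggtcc
Ndufa13, chr8:69902021-69902270, minus strand: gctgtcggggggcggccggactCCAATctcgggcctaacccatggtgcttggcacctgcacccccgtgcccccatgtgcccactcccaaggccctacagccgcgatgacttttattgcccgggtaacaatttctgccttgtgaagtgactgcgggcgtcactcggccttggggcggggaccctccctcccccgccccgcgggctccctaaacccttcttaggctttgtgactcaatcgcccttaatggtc
Cox6a1, chr5:115348959-115349208, minus strand: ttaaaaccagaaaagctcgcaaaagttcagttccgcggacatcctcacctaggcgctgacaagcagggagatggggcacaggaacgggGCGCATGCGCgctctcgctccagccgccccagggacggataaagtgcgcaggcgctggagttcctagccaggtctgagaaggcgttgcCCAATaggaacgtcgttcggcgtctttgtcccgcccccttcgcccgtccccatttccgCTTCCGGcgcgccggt
Atp5b, chr10:128083057-128083306, plus strand: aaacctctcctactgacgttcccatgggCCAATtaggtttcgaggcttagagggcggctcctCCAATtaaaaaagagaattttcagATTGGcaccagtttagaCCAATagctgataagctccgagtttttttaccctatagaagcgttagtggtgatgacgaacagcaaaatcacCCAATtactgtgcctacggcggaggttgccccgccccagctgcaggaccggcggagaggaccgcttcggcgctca
Atp5h, chr11:115419920-115420169, minus strand: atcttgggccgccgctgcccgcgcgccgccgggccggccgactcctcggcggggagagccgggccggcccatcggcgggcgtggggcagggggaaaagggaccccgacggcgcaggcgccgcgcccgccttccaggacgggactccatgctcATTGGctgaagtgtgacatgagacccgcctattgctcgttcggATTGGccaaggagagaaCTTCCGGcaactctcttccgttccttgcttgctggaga
Atp5k, chr5:108434400-108434649, minus strand: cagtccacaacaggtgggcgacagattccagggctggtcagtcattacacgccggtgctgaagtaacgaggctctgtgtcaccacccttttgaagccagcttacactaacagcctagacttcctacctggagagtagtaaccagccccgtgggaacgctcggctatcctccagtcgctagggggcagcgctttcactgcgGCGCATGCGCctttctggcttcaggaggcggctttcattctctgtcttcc
The NRF1 letters stood on both strands and overlapping, from 162 to 153 bases before the start of Cox6a1 and from 50 to 41 bases before that of Atp5k. The ETS letters stood on the opposite strand 16 to 10 bases before the start of Cox6a1 and 38 to 32 bases before that of Atp5h. Atp5b had the CCAAT letters at 5 places, Atp5h at 2, and Ndufa13 and Cox6a1 at 1 each, and Ndufv1 had none of the letters in its 250 bases.

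Taken over all complexes together, most members read a little lower in both GFP-carrying lines than in OP9. Complex V was divided in OP9-DL against OP9, with 9 of 16 probes below 0. In OP9-GFP cells 61 of 78 probes were below their OP9 value and 17 above it. Over the whole array, 47.7% of the 15581 probes compared were below 0 and 51.7% above 0 in that comparison. The median log2 difference of the members was -0.26, with quartiles at -0.46 and -0.02, while the median of all probes compared was 0.02. On the OP9-DL array 57 of 78 were below their OP9 value, against 48.3% of all probes compared, and the median was -0.17 beside 0.02 for all probes. These comparisons share the OP9 array, so they are not independent of each other.

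Between the arrays of OP9-DL and OP9-GFP cells the median of the members lay closer to 0. All probes compared also differed less here, with 16.2% at 1.5-fold or more. That share was 29.4% in OP9-GFP against OP9 and 28.8% in OP9-DL against OP9. Here 46 of 78 were above 0, against 48.0% of all probes compared, with a median of 0.09 beside -0.01 for all probes. Read by array, 19 members were highest in OP9-DL, 14 in OP9-GFP and 45 (57.7%) in OP9, while 30.6%, 32.6% and 36.1% of all probes compared were highest there. The lowest value was in OP9-DL for 30 members (38.5%), in OP9-GFP for 43 (55.1%) and in OP9 for 5 (6.41%), beside 30.7%, 28.9% and 39.5% of all probes.

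**Figure D1:**
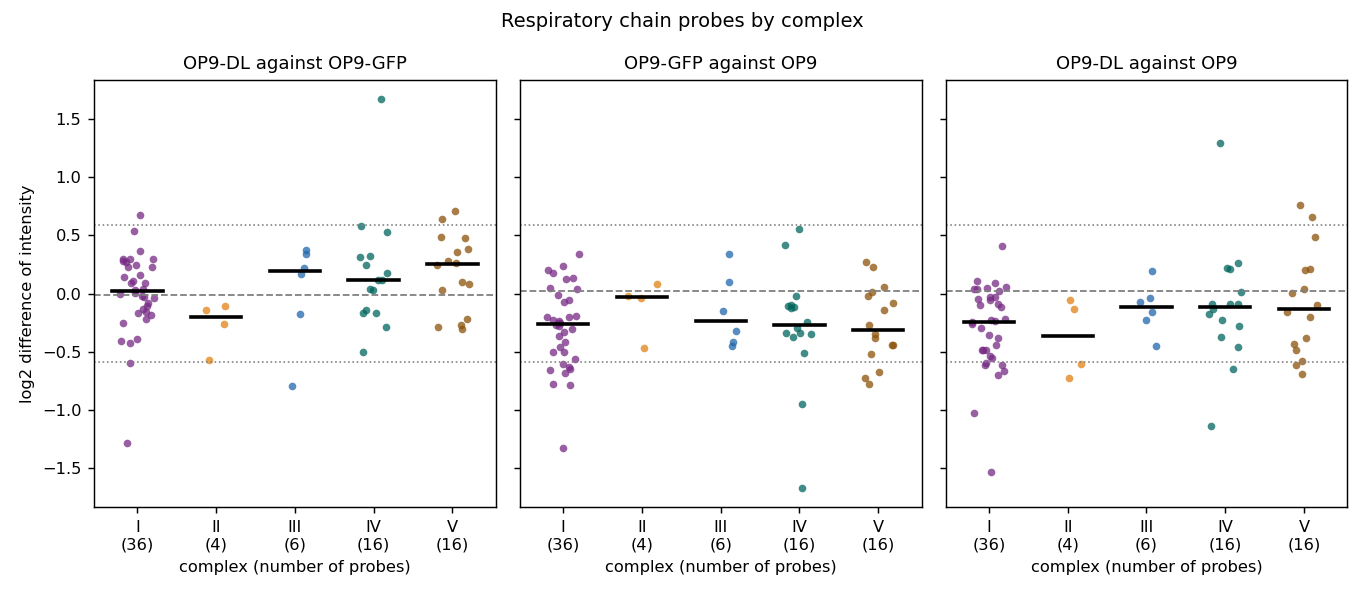
Each point is 1 probe of a respiratory chain complex (x axis, with the number of probes), and the y axis is its log2 difference of intensity in the comparison named above each panel. Black bars are medians, the dashed line is the median of all 15581 probes compared, and dotted lines mark 1.5-fold. In the middle panel the medians of complexes I, III, IV and V lie between -0.31 and -0.24 and that of complex II at -0.03.

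The shifts were small for single genes. At 2-fold or more, 2 of 78 probes differed in OP9-DL against OP9-GFP, where 5.03% of all probes compared did so: Cox6a2 was higher, beside 2.31% of all probes, and Ndufv1 lower, beside 2.72%. In OP9-GFP against OP9 the count was 2, beside 11.6% of all probes (4.86% higher and 6.75% lower), and both Ndufa13 and Cox6b2 were lower. In OP9-DL against OP9 it was 4, beside 11.2% (4.31% higher and 6.91% lower): Cox6a2 was higher and Ndufv1, Ndufa13 and Cox6b2 were lower. Cox6a2 and Cox6b2 were also the 2 members with a mean under the brightness limit of 6.13 used for the whole array, so among the 76 brighter members the counts were 1, 1 and 2.

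At 1.5-fold or more, most differences from OP9 were lower values, and those between OP9-DL and OP9-GFP ran both ways. In OP9-GFP against OP9, 13 of 78 members differed, where 29.4% of all probes did: 13 were lower and 0 higher, beside 15.4% of all probes lower and 13.9% higher. In OP9-DL against OP9, 16 differed, where 28.8% of all probes did: 13 were lower and 3 higher, beside 15.6% and 13.2%. In OP9-DL against OP9-GFP, 7 differed, where 16.2% of all probes did: 4 were higher and 3 lower, beside 7.74% and 8.43%. In all, 27 members passed 1.5-fold in at least 1 comparison and 51 in none. The like count over all probes was not made, so the 27 serve only to name genes. The share of members lower by 1.5-fold was thus near that of all probes in both comparisons with OP9, while fewer members than probes at large were higher. Of the 78 members, 74 also passed a limit at the 50th percentile, so they were brighter than the probes compared as a whole. The part of brightness in these counts and in those at 2-fold was not tested.

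**Figure D2:**
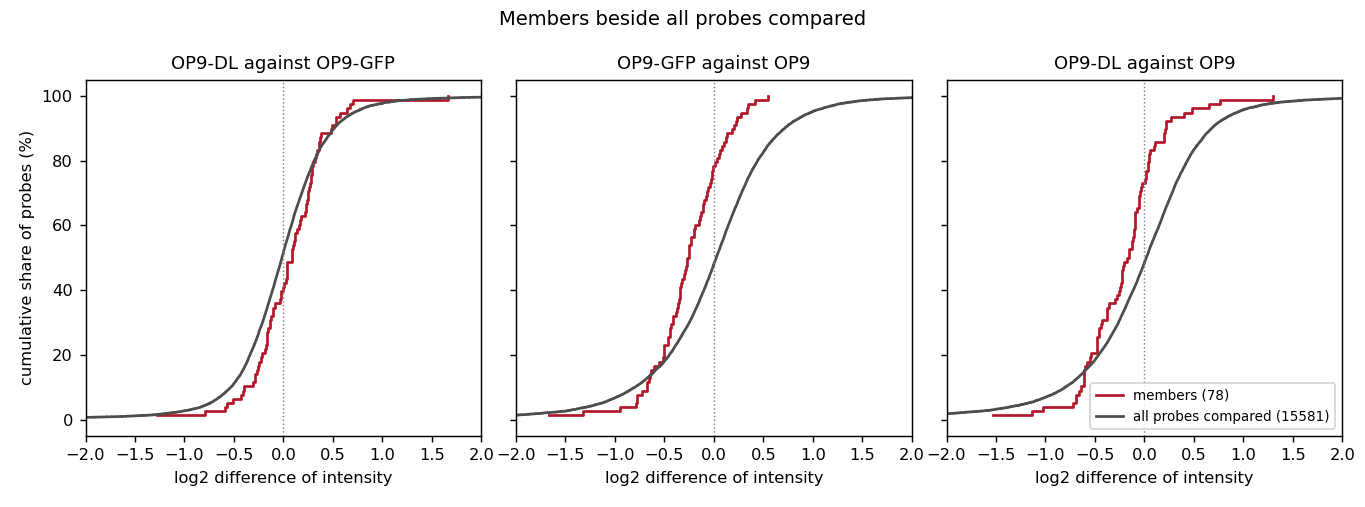
The curves give the cumulative share of probes (y axis, %) at or below each log2 difference of intensity (x axis, shown from -2 to 2) for the 78 members and for the 15581 probes compared, 1 panel for each comparison. Against OP9 the members' curve stands left of the other around 0, with 61 of 78 (OP9-GFP) and 57 of 78 (OP9-DL) below 0, and it is steeper. The members were also brighter than the probes compared as a whole.

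Complex I takes electrons from NADH and is the largest of the complexes. Its 36 probes had medians of 0.02 for OP9-DL against OP9-GFP, -0.26 for OP9-GFP against OP9 and -0.24 for OP9-DL against OP9. In each comparison with OP9, 28 of 36 were below 0, beside 47.7% (OP9-GFP) and 48.3% (OP9-DL) of all probes compared. Of the 13 complex I probes past 1.5-fold in some comparison, 11 had their highest value on the OP9 array, and the exceptions were Ndufa12 and Ndufb8. The like share of probes past 1.5-fold over the whole array was not counted. Of all 36 complex I probes, 21 (58.3%) were highest on the OP9 array, beside 36.1% of all probes compared.

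Ndufv1 binds NADH and the flavin that takes its electrons, and it had the lowest difference of all members in both comparisons of OP9-DL. It had an intensity of 153.1 in OP9-DL, 371.6 in OP9-GFP and 442.1 in OP9 cells. It was 2.43-fold lower in OP9-DL than in OP9-GFP and 2.89-fold lower than in OP9, and the values of OP9-GFP and OP9 differed by 1.19-fold. Its neighbours in the electron path did not share this difference: Ndufv2, the iron-sulfur protein beside it, had 2898.0, 2937.2 and 2957.1 on the OP9-DL, OP9-GFP and OP9 arrays. Ndufs1, which carries further iron-sulfur clusters, had 282.0, 238.3 and 273.6.

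The other core subunits, those with relatives in bacterial complex I, lay closer together. Ndufs3 had 1020.7, 1098.1 and 1558.0 on the OP9-DL, OP9-GFP and OP9 arrays and was 1.53-fold lower on OP9-DL than on OP9. Ndufs7, which holds the last iron-sulfur cluster before ubiquinone, had 561.7, 614.1 and 599.2, and Ndufs8 had 301.3, 257.2 and 354.4. Over the 6 core probes the median of OP9-GFP against OP9 was -0.22, with 5 of 6 below 0, beside 47.7% of all probes compared.

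Among the accessory Ndufa subunits, Ndufa13 stood out. Ndufa13, also called GRIM-19, is an accessory subunit that has been linked to STAT3 and cell death as well. It had 3068.3 in OP9-DL, 2502.3 in OP9-GFP and 6253.2 in OP9 cells, which is 2.04-fold lower in OP9-DL and 2.50-fold lower in OP9-GFP than in OP9. Both GFP-carrying lines thus lay close together, within 1.23-fold, and below the parental array. The promoter printed above for this gene has no NRF1, ETS or YY1 letters before its start.

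Most other Ndufa probes were also lower than in OP9, by less. Over 13 Ndufa probes the median of OP9-GFP against OP9 was -0.51, with 10 below 0, and that of OP9-DL against OP9 was -0.25, with 9 below 0. Of all probes compared, 47.7% and 48.3% were below 0 there. Ndufa7 had 1767.0, 1218.4 and 2098.4 on the OP9-DL, OP9-GFP and OP9 arrays, 1.72-fold lower on OP9-GFP than on OP9. Ndufa6 had 832.6, 754.2 and 1207.5, and Ndufa9, which helps hold the peripheral arm to the membrane arm, had 1133.7, 1108.3 and 1717.7. For these 3 genes the OP9 array was the highest.

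Ndufa5 of the peripheral arm had 2650.2, 2957.2 and 4198.5 on the OP9-DL, OP9-GFP and OP9 arrays. Ndufa4 had 5173.5, 4292.2 and 6738.0, 1.57-fold lower on OP9-GFP than on OP9; it was first assigned to complex I and is now placed with complex IV. Ndufa12, an accessory subunit of the peripheral arm, ran the other way, with 6977.0, 4366.6 and 5273.9. It was 1.60-fold higher on OP9-DL than on OP9-GFP, the highest difference of complex I in that comparison. Ndufa3 had 27.7, 36.4 and 28.7, the highest difference of complex I in OP9-GFP against OP9, at 0.34 on the log2 scale.

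The Ndufb and Ndufc subunits sit in the membrane arm. Of their 11 probes, 9 were below 0 in OP9-GFP against OP9 and 8 in OP9-DL against OP9, beside 47.7% and 48.3% of all probes compared. The medians were -0.25 and -0.36. Ndufb7 had 1271.5, 1302.3 and 2058.4 on the OP9-DL, OP9-GFP and OP9 arrays, 1.62-fold lower on OP9-DL and 1.58-fold lower on OP9-GFP than on OP9. Ndufb5 had 109.0, 109.5 and 166.3, and Ndufb4 1543.9, 1260.1 and 2156.5. For Ndufb7 and Ndufb5 the GFP-carrying arrays were nearly equal. Ndufb8 had 1325.0, 1997.9 and 1698.8 and was 1.51-fold lower on OP9-DL than on OP9-GFP.

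The remaining complex I members stayed within 1.5-fold in every comparison, 23 probes in all. Ndufs5 was read by 2 probes that gave like differences: 1555.5, 1464.8 and 1806.0 on the OP9-DL, OP9-GFP and OP9 arrays by the first, and 894.2, 831.4 and 1069.2 by the second. In OP9-GFP against OP9 they read -0.30 and -0.36 on the log2 scale. Ndufs4, whose loss in mice gives a disease like Leigh syndrome, had 1097.6, 1456.5 and 1286.4, and Ndufs6 had 1838.8, 2184.8 and 2571.5. Ndufab1, the mitochondrial acyl carrier protein, had 67.3, 60.2 and 73.1, and the assembly factor Ndufaf1 171.3, 199.8 and 183.7. Ndufc1 was dim, with 8.2, 9.3 and 8.5.

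Complex II oxidises succinate and is also an enzyme of the citric acid cycle. All 4 probes were lowest on the OP9-DL array, beside 30.7% of all probes compared. Sdha, the flavoprotein that oxidises succinate, had 404.4 in OP9-DL, 599.4 in OP9-GFP and 615.8 in OP9 cells, 1.48-fold lower on OP9-DL than on OP9-GFP and 1.52-fold lower than on OP9. Sdhb, the iron-sulfur subunit, had 679.2, 730.3 and 743.3. These catalytic subunits were thus close between OP9-GFP and OP9, within 1.03-fold.

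Sdhc and Sdhd anchor the enzyme in the membrane. Sdhc had 630.6, 754.8 and 1041.6 on the OP9-DL, OP9-GFP and OP9 arrays, 1.65-fold lower on OP9-DL and 1.38-fold lower on OP9-GFP than on OP9. Sdhd had 1121.8, 1233.9 and 1168.1. The medians of complex II were -0.20 for OP9-DL against OP9-GFP, -0.03 for OP9-GFP against OP9 and -0.37 for OP9-DL against OP9. For OP9-DL against OP9-GFP, all 4 were below 0, where 51.3% of all probes compared were.

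Complex III passes electrons from ubiquinol to cytochrome c. Its 6 probes had a median of 0.19 for OP9-DL against OP9-GFP, of -0.24 for OP9-GFP against OP9 and of -0.12 for OP9-DL against OP9. Uqcrfs1, the Rieske iron-sulfur protein, differed most between the arrays, with 605.1 in OP9-DL, 1048.6 in OP9-GFP and 829.1 in OP9 cells. It was 1.73-fold lower on OP9-DL than on OP9-GFP and 1.26-fold higher on OP9-GFP than on OP9. No other complex III probe reached 1.5-fold in a comparison.

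The core proteins Uqcrc1 and Uqcrc2, which form the matrix-facing part of the complex, had 1641.2, 1461.1 and 1830.6 and 1977.7, 1527.0 and 2036.9 on the OP9-DL, OP9-GFP and OP9 arrays. Both were lowest on the OP9-GFP array. Uqcrh, the hinge protein that contacts cytochrome c1, had 1671.3, 1433.3 and 1954.1. Uqcr, now Uqcr11, had 3115.9, 2458.8 and 2722.2, and Uqcrb 2907.8, 3280.4 and 3058.8. Cyc1, cytochrome c1 itself, lies outside the symbol rule and had 762.6, 882.4 and 622.0, so its lowest value was on the OP9 array.

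**Figure D3:**
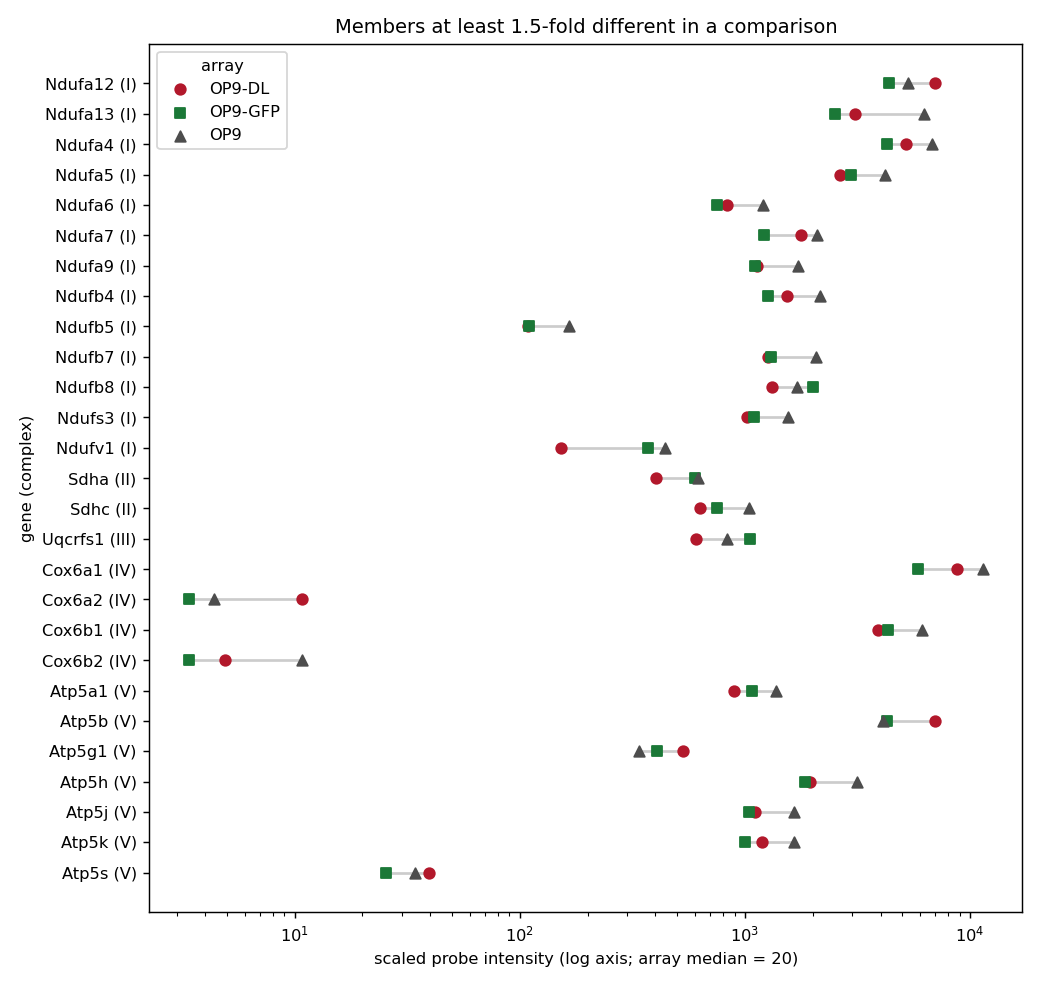
Each row is 1 of the 27 member probes past 1.5-fold in at least 1 comparison, with its complex in brackets, and the x axis is the scaled intensity on a log axis on the OP9-DL (circle), OP9-GFP (square) and OP9 (triangle) arrays. Ndufv1 is lowest in OP9-DL (153.1), Ndufa13 is highest in OP9 (6253.2) and Atp5b is highest in OP9-DL (6976.9). Levels are not to be compared between rows, since each probe has its own response.

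Complex IV, cytochrome c oxidase, reduces oxygen to water, and its catalytic subunits come from mitochondrial DNA. Of its 16 probes, 14 were below 0 in OP9-GFP against OP9, with a median of -0.27, and 11 in OP9-DL against OP9, with a median of -0.11. Of all probes compared, 47.7% and 48.3% were below 0 there. Against OP9-GFP, 11 were above 0 in OP9-DL, beside 48.0% of all probes, with a median of 0.12. Over the 10 probes of the widely used subunits, 9 were below 0 against OP9 in each line, beside the same 47.7% and 48.3%. Their medians were -0.27 for OP9-GFP and -0.15 for OP9-DL. Against OP9-GFP their OP9-DL median was 0.08, and it turned to -0.01 under quantile scaling.

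Cox6a1, the widely used form of a subunit that modulates the enzyme, had 8779.6 in OP9-DL, 5890.5 in OP9-GFP and 11378.2 in OP9 cells. It was 1.93-fold lower on OP9-GFP than on OP9 and 1.49-fold higher on OP9-DL than on OP9-GFP, so its OP9-DL value lay between the others. Cox6a2, its heart and muscle form, had 10.8, 3.4 and 4.4, with 3.18-fold more on OP9-DL than on OP9-GFP. Cox6a2 was under the brightness limit, where a fold rests on small readings. The bases printed above for Cox6a1 hold NRF1, ETS and CCAAT letters.

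Cox6b1 and Cox6b2 are the widely used and the testis form of a subunit that faces the intermembrane space. Cox6b1 had 3910.3, 4302.5 and 6111.0 on the OP9-DL, OP9-GFP and OP9 arrays, 1.56-fold lower on OP9-DL and 1.42-fold lower on OP9-GFP than on OP9. Cox6b2 had 4.9, 3.4 and 10.8, 3.18-fold lower on OP9-GFP than on OP9, again at dim readings. The widely used and the tissue-restricted form of each pair were read by different probes, so their levels are not set against each other. Over 4 tissue-restricted probes (Cox4i2, Cox6a2, Cox6b2 and Cox8b) the median was 0.42 for OP9-DL against OP9-GFP, with 4 above 0, and -0.35 for OP9-GFP against OP9, with 4 below 0, beside 48.0% above and 47.7% below 0 of all probes compared. In OP9-DL against OP9, 2 were above and 2 below 0. Cox6a2 and Cox6b2 were under the brightness limit and Cox8b not far above it, so these directions rest on small readings.

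Cox4i1 is the widely used form of a regulatory subunit, and Cox4i2 is a form known from lung and from cells at low oxygen. Cox4i1 had 6454.3, 5714.9 and 7285.7 on the OP9-DL, OP9-GFP and OP9 arrays, and Cox4i2 had 123.7, 99.4 and 106.2. Cox7a2, the widely used form of another subunit, had 3250.5, 3651.7 and 4477.2, and its muscle form Cox7a1 was on no named probe. Cox7a2l, which links complexes III and IV, had 1633.9, 1592.1 and 1615.4. Cox8a had 3954.9, 4438.3 and 4793.9, and its muscle and brown fat form Cox8b 11.9, 11.0 and 13.9.

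Cox7c had 4500.6, 6387.2 and 4798.0 on the OP9-DL, OP9-GFP and OP9 arrays, with its highest value on the OP9-GFP array and the lowest difference of complex IV in OP9-DL against OP9-GFP, at -0.51 on the log2 scale. Cox5a and Cox5b, nuclear subunits next to the catalytic core, had 3325.3, 2654.8 and 2874.0 and 3207.1, 3134.5 and 3421.4. The remaining subunits, Cox6c and Cox7b, had their highest value on the OP9 array and stayed within 1.27-fold. Emc8, which the symbol Cox4nb brought in, had 724.3, 882.5 and 602.9, the highest difference among the members in OP9-GFP against OP9, at 0.55.

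Complex V makes ATP with a catalytic head, a rotor with a ring of subunit c, and a peripheral stalk that holds the head still. Its 16 probes had medians of 0.25 for OP9-DL against OP9-GFP, -0.31 for OP9-GFP against OP9 and -0.13 for OP9-DL against OP9. Of the 16 probes, 12 were above 0 in OP9-DL against OP9-GFP, beside 48.0% of all probes compared. In OP9-DL against OP9 they were divided, with 9 below 0 and 7 above, beside 48.3% and 51.3% of all probes. Under quantile or lowess scaling 11 were below 0 there. By array, 7 were highest in OP9-DL, 1 in OP9-GFP and 8 in OP9, beside 30.6%, 32.6% and 36.1% of all probes.

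The catalytic head pairs the alpha and beta subunits. Atp5b, the catalytic beta subunit, had 6976.9 in OP9-DL, 4282.5 in OP9-GFP and 4110.1 in OP9 cells. It was 1.63-fold higher on OP9-DL than on OP9-GFP and 1.70-fold higher than on OP9, while OP9-GFP and OP9 differed by 1.04-fold. Atp5a1, the alpha subunit, had 897.0, 1078.7 and 1369.7 and was 1.53-fold lower on OP9-DL than on OP9. The partners in the head were thus read in opposite directions on the OP9-DL array, at 0.76 for beta and -0.61 for alpha on the log2 scale against OP9.

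The rotor shaft subunits gamma and delta were close on all arrays. Atp5c1, gamma, had 3060.8, 3557.2 and 3528.9 on the OP9-DL, OP9-GFP and OP9 arrays, and Atp5d, delta, had 4914.0, 4817.7 and 4891.2. Atp5e, epsilon, had 2604.0, 1866.8 and 2529.9, with its lowest value on the OP9-GFP array. Over the 5 probes of the head and shaft the median of OP9-GFP against OP9 was -0.02.

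Subunit c is encoded by separate genes that give the same mature protein. Atp5g1 had 533.4 in OP9-DL, 408.7 in OP9-GFP and 339.1 in OP9 cells, 1.57-fold higher on OP9-DL than on OP9. Atp5g3 had 19033.4, 15914.6 and 13587.2, in the same order. Atp5g2 had 3875.6, 3029.2 and 4330.4, with the highest value on the OP9 array instead. All 3 were above 0 in OP9-DL against OP9-GFP, where 48.0% of all probes compared were, with a median of 0.36. The difference of Atp5g3 there depended on the scaling: it was 0.26 as deposited, 0.05 under quantile and 0.13 under lowess scaling. These genes are near-identical in part, and probe sequences were not used here, so a probe may read more than 1 of them.

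The peripheral stalk subunits were lower in OP9-GFP than in OP9. Atp5h, subunit d, had 1951.6, 1840.0 and 3147.0 on the OP9-DL, OP9-GFP and OP9 arrays, 1.61-fold lower in OP9-DL and 1.71-fold lower in OP9-GFP than in OP9. Atp5j, coupling factor F6, had 1111.2, 1037.7 and 1659.2. Atp5f1, subunit b and now Atp5pb, had 4993.0, 3561.9 and 4305.8, and Atp5o, the OSCP subunit that joins the stalk to the head, 168.6, 205.6 and 227.0. All 4 were below 0 in OP9-GFP against OP9, beside 47.7% of all probes compared, with a median of -0.48.

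The small membrane subunits e, f and g help ATP synthase form dimers. Atp5k, subunit e, had 1184.5, 997.9 and 1653.0 on the OP9-DL, OP9-GFP and OP9 arrays, 1.66-fold lower on OP9-GFP than on OP9. Atp5l, subunit g, had 4892.3, 4021.6 and 5250.2, and Atp5j2, subunit f, 2008.2, 2479.5 and 2615.9. All 3 were below 0 in both comparisons with OP9, beside 47.7% (OP9-GFP) and 48.3% (OP9-DL) of all probes compared. Dmac2l, brought in by the symbol Atp5s, had 39.6, 25.4 and 34.4 and was 1.56-fold higher on OP9-DL than on OP9-GFP.

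Genes that serve the chain but lie outside the symbol rule were read for comparison, as lists of genes bright enough to be compared. In the list of nuclear regulators, 15 genes were bright enough. The list also held genes that copy or read mitochondrial DNA, such as Polg, Polg2, Twnk and Polrmt, and do not control the members' nuclear genes. Of the 15, 11 were above 0 in OP9-GFP against OP9, beside 51.7% of all probes compared. Their median was 0.28, opposite in sign to the members' median of -0.26, and it takes in genes of both kinds. At 1.5-fold 5 of the 15 were higher and 0 lower there, beside 13.9% and 15.4% of all probes compared. In OP9-DL against OP9 the list was divided, with 8 above 0 and 7 below, beside 51.3% and 48.3% of all probes. The median there was 0.10, with 2 higher and 2 lower by 1.5-fold, beside 13.2% and 15.6%. Tfb2m, a transcription factor of mitochondrial DNA, had 142.4, 119.2 and 48.4 on the OP9-DL, OP9-GFP and OP9 arrays, and Polrmt, the mitochondrial RNA polymerase, 72.6, 147.8 and 67.6. Polrmt was thus high on the OP9-GFP array alone, and Tfb2m on both GFP-carrying arrays.

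The factors named with the promoters above were among these regulators. Nrf1 had 71.7, 93.7 and 60.3 on the OP9-DL, OP9-GFP and OP9 arrays, Gabpa, the DNA-binding subunit of GABP, 88.1, 68.0 and 68.5, and Yy1 232.2, 203.1 and 167.8. Pprc1, a coactivator of the PGC-1 family, had 182.5, 218.2 and 130.8, while Ppargc1a, PGC-1 alpha, was dim at 3.3, 3.7 and 5.6 by the probe with a value on all arrays. Nrf1, Yy1 and Pprc1 were higher on both GFP-carrying arrays than in OP9, Gabpa was higher in OP9-DL and nearly equal in OP9-GFP, and others were lower, such as Tfb1m, a factor for mitochondrial ribosomal RNA, with 101.2, 114.3 and 153.9. Of the 15, 11 were below 0 in OP9-DL against OP9-GFP, beside 51.3% of all probes compared. The median was -0.20, with Polrmt the lowest at -1.03 and Gabpa the highest at 0.37.

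Genes of electron entry were mostly lower in OP9-GFP than in OP9. The list held 7 genes, for cytochromes c and c1, the electron-transferring flavoprotein and its dehydrogenase, and ubiquinone synthesis. At 1.5-fold 4 were lower in OP9-GFP against OP9 and 0 higher, beside 15.4% and 13.9% of all probes compared. The 4 were Etfa, Etfb, Etfdh and Coq9, while Cycs and Cyc1 were above 0 there, at 0.17 and 0.50 on the log2 scale. Etfb, a subunit of the flavoprotein that takes electrons from fatty acid oxidation, had 1531.6, 1206.2 and 2380.5 on the OP9-DL, OP9-GFP and OP9 arrays. Coq9, a ubiquinone synthesis factor, had 32.4, 49.7 and 95.8. Cycs, somatic cytochrome c, had 1488.1, 1183.0 and 1054.9 and was highest on the OP9-DL array. For OP9-DL against OP9-GFP the list had 0 genes higher by 1.5-fold and 1 lower, Coq9, beside 7.74% and 8.43% of all probes, and Etfb was the highest, at 0.34.

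Of 19 assembly factors, 10 were above 0 and 9 below in OP9-GFP against OP9, beside 51.7% and 47.7% of all probes compared. The median was 0.02 and turned to -0.02 under lowess scaling. In OP9-DL against OP9 7 were above 0 and 12 below, beside 51.3% and 48.3% of all probes. The median there was -0.11, near the members' -0.17. In OP9-GFP against OP9 0 were higher by 1.5-fold, beside 13.9% of all probes, and 1 was lower, beside 15.4%: Surf1, which assembles complex IV, with 198.1, 170.5 and 291.7 on the OP9-DL, OP9-GFP and OP9 arrays. Against OP9-GFP, 2 were higher by 1.5-fold in OP9-DL and 1 lower, beside 7.74% and 8.43%. Tmem126b, which assembles complex I, had 145.7, 90.4 and 120.9, the highest difference of the list there, and Atpaf2, which assembles ATP synthase, had 69.6, 120.7 and 83.2, the lowest.

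Enzymes of the citric acid cycle and pyruvate entry were divided. Of 21, in OP9-GFP against OP9 2 were higher by 1.5-fold and 7 lower, beside 13.9% and 15.4% of all probes compared, with a median of -0.07. In OP9-DL against OP9-GFP 3 were higher and 0 lower, beside 7.74% and 8.43%. Pcx, pyruvate carboxylase, had 67.4, 48.5 and 220.5 on the OP9-DL, OP9-GFP and OP9 arrays, and Pdk4, a kinase that switches off pyruvate dehydrogenase, had 53.9, 69.3 and 24.5. Dlst, of the oxoglutarate dehydrogenase complex, was the highest in OP9-DL against OP9-GFP with 1024.1, 666.1 and 1126.3, and its partner Ogdh the lowest with 95.3, 140.3 and 185.7.

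Of 8 carriers and uncoupling proteins of the inner membrane, 1 was higher and 2 were lower by 1.5-fold in OP9-GFP against OP9, beside 13.9% and 15.4% of all probes compared. In OP9-DL against OP9-GFP 0 were higher and 1 was lower, beside 7.74% and 8.43%. Slc25a5, an ADP and ATP carrier, had 5677.5, 7137.6 and 3667.3 on the OP9-DL, OP9-GFP and OP9 arrays, its lowest value on the OP9 array, unlike most members. Slc25a11, the oxoglutarate carrier, had 143.5, 132.1 and 295.0. Slc25a3, the phosphate carrier, was the highest in OP9-DL against OP9-GFP with 8425.5, 5807.9 and 6331.6, and Slc25a20, the acylcarnitine carrier, the lowest with 16.9, 31.6 and 62.3. Ndufa4l2, a relative of Ndufa4 that was set aside, was on no named probe.

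**Figure D4:**
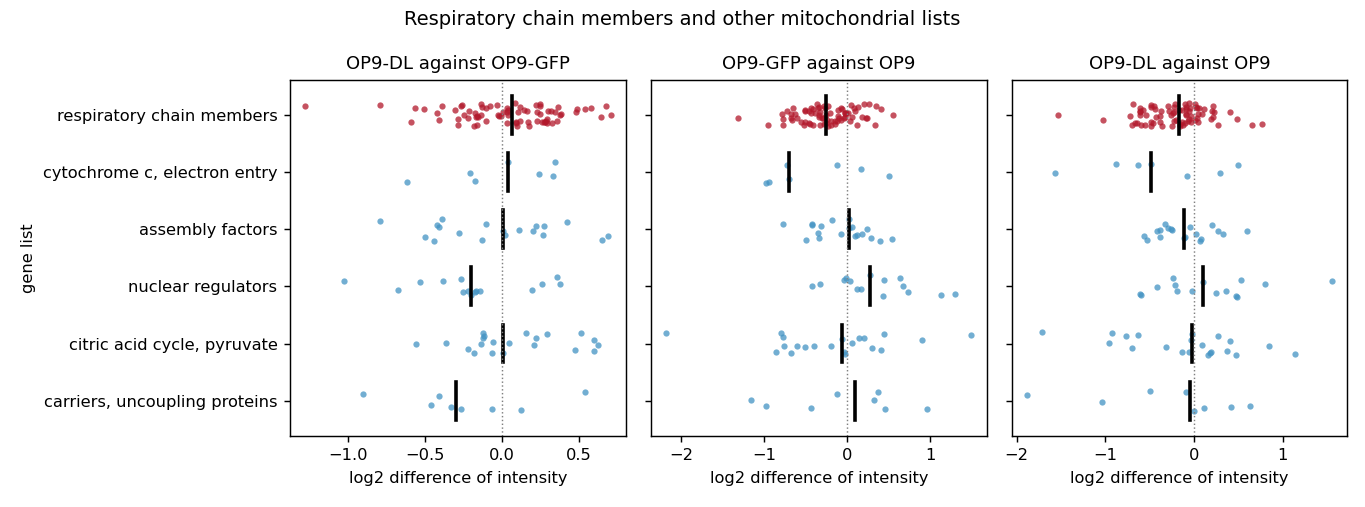
Each point is 1 probe, with its log2 difference of intensity on the x axis, for the 76 brighter members and for 5 lists of other mitochondrial genes (rows), 1 panel for each comparison, and black bars are medians. In OP9-GFP against OP9 the members (-0.25) and the nuclear regulators (0.28) lie on opposite sides of 0. In OP9-DL against OP9 these medians are -0.17 and 0.10.

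What the members share beside their symbols was read from their promoters and places in the genome. The genes matched in RefSeq lay on 19 chromosomes. Of the 77 genes, 65 had an entry in the promoter table, which covers 250 bases before to 50 after the annotated start. The NRF1 letters were found in 12 of 65 members (18.5%), against 6.62% of the 11761 genes with a probe read on all arrays and 4.41% of all 27025 genes in the table. In 5 of the 12, Atp5g2, Atp5k, Cox6a1, Ndufa11 and Uqcrc1, they stood on both strands and overlapped, which makes a palindrome. It was thus in 7.69% of the 65 members, against 1.86% of genes with a probe. Among genes with a probe that held the NRF1 letters, 219 of 778 had the palindrome. The ETS letters were found in 16 members (24.6%), against 16.0% and 9.93%, and the YY1 letters in 10 (15.4%), against 7.55% and 4.69%. The members with YY1 letters were mainly of complex I (Ndufa1, Ndufa5, Ndufa7, Ndufa9, Ndufb5, Ndufs4, Ndufs6 and Ndufs7), beside Atp5b and Atp5j. Complex I is also the largest group, with 35 of the 77 genes.

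CCAAT was found in 27 of 65 members (41.5%), against 42.0% of genes with a probe and 41.1% of all genes in the table. GGGCGG, a GC box, was also found in 27 (41.5%), against 59.4% and 38.2%. None of the sets of letters contains another, although the last letters of 1 can be the first of another. Members with and without the NRF1 letters had like differences in OP9-GFP against OP9, with a median of -0.24 over 12 probes with them and -0.25 over 54 without. For the palindrome alone the median was -0.52 over 5 probes, from -0.95 (Cox6a1) to 0.05 (Ndufa11), and -0.25 over 61 probes without it. The value thus depends on which form is counted. It also depends on the line: in OP9-DL against OP9 the median was -0.16 with the palindrome and -0.22 without it. The values that follow are again for OP9-GFP against OP9. With ETS letters the median was -0.45 over 16 probes, 14 of them below 0, and without them -0.23 over 50, 37 of them below 0. With YY1 letters it was -0.37 over 10 probes and without them -0.25 over 56. These describe few genes, and the ranges overlap.

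**Figure D5:**
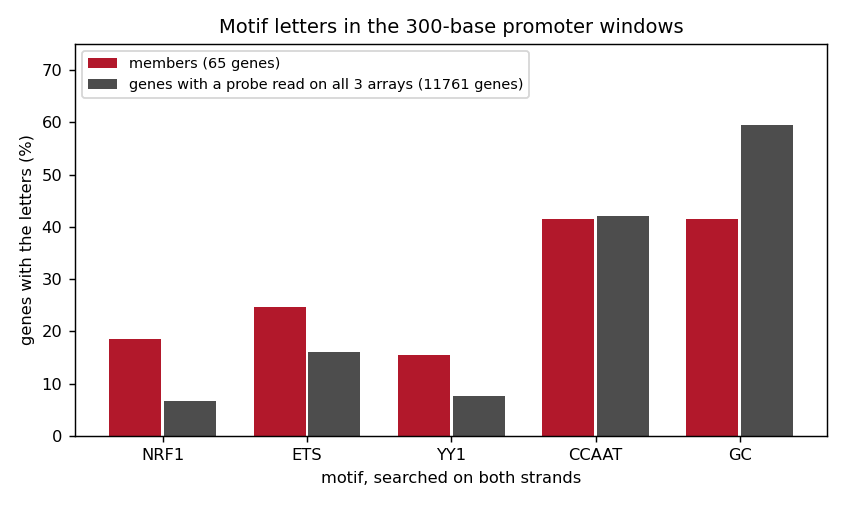
Bars give the share of genes (y axis, %) whose 300-base promoter window holds each set of motif letters on either strand, for the 65 members and for the 11761 genes with a probe read on all arrays. NRF1 letters are in 18.5% of members against 6.62%, and GC box letters in 41.5% against 59.4%.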

How the data were processed

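Each of 3 mouse OP9 lines had 1 one-colour array of its RNA; per the labels' protocols, amplified amino allyl RNA was coupled to Cy5. The deposited values are linear probe intensity, which the authors scaled to a median of 20 per array, as the values show; the scanner, background correction and rule for blanks were not given in the sources used here. Differences were taken as log2 of the deposited intensity with no added constant. Of 23473 probes, 20775 had a value on all 3 arrays, and the background is 15581 of these whose mean log2 intensity reached the 25th percentile (2.62, or 6.13 as intensity). Symbols come from the platform's gene table (16631 probes with 1 symbol), and 4 member symbols were updated through RefSeq (GRCm38.p6). The array's build is not given, and the only coordinates are those of RefSeq promoters.

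With 1 array per line there is no error, test or p-value, and 3 arrays limit the precision. Calls are differences of 2-fold or 1.5-fold. The members, gene lists and role groups were chosen with earlier results of these data known. Members named with values are those past 1.5-fold in a comparison, the ends of each complex, all of complex II, genes with 2 probes, isoform pairs and core subunits; further members, regulators, printed promoters and motifs were chosen after their values were seen, and the NRF1 and YY1 letters were shortened to 7 bases after longer forms had been searched. The counting was checked on simulated arrays without noise, so the check does not show how noise affects the counts. Alternatives were quantile and lowess scaling (span 0.3), other brightness limits, an added constant of 1.2, thresholds of 1.5-fold and 3-fold, the brightest probe per gene and smaller member sets. Python 3.11.15, numpy 2.4.6, pandas 2.3.3, statsmodels 0.14.6 and matplotlib 3.10.9 were used.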

Additional observations from a re-analysis of the deposited data

How the results depend on the processing

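The median differences of the 78 members kept their sign under quantile and lowess scaling, the other brightness limits, the added constant, the brightest probe per gene and the smaller member sets, from 0.04 to 0.09 for OP9-DL against OP9-GFP, from -0.30 to -0.25 for OP9-GFP against OP9 and from -0.24 to -0.16 for OP9-DL against OP9. Taking the brightness limit away could not change the member medians, because the 78 members were not held to it. Medians by complex kept their sign under both scalings. For OP9-DL against OP9, complex IV moved from -0.11 to -0.22 under both quantile and lowess scaling and complex V from -0.13 to -0.23 under lowess; the cause was not tested.

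Counts at 2-fold were small and moved with the limit and the threshold. For OP9-DL against OP9-GFP the count of 2 became 1 at the 50th percentile limit, 1 at the 25th percentile limit applied to members, 7 at 1.5-fold and 1 at 3-fold. For OP9-GFP against OP9 the count of 2 became 1, 1, 13 and 1 in the same order, and for OP9-DL against OP9 the count of 4 became 2, 2, 16 and 0. The limits lower these counts by removing Cox6a2 and Cox6b2. The limit on members and the set without Emc8, Dmac2l and Ndufaf1 were added after the data were seen. Of 702 recomputed values of single probes, 40 moved by 0.1 or more on the log2 scale and 0 changed sign among those past 1.5-fold. Without replicate arrays, differences of this size cannot be separated from variation between cultures or arrays. No paired analysis was possible because each line has 1 array.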
